A study of Mus musculus with 32 samples.

Results

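Thrb, Gnb3 and Gngt2 are 3 genes known from cone photoreceptors, and they were measured by 4 probes of the 20794 on the array. The members are all probes annotated to these gene symbols: Thrb has probes 6064 and 19047, Gnb3 has probe 15054 and Gngt2 has probe 3985. They are 3 of the 9030 genes named by the 12771 probes that carry a symbol. The data came from 32 2-colour cDNA arrays of mouse organs, 12 of eye, 12 of brain and 8 of heart, and each array compared the RNA of a sighted C3H mouse with a pool. The sighted group is named in the series text as 6 males of the C3H seh mutant line. The control was, for each organ, 1 pool of RNA from 6 males labelled C3H.pde6b-, with the same 6 mice behind the brain and heart pools and a different 6 behind that of eye. No age or treatment is given for either group, and C3H is the strain of both. Because the control RNA was pooled, the spread between control mice is not part of any value below. The labels do not tell which arrays share a sighted animal, so p-values measure the spread between replicates, which may be partly technical.

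Cones are the photoreceptors of daylight and colour vision. In their outer segments an opsin activates transducin, a G protein whose beta and gamma subunits in cones are the products of Gnb3 and Gngt2, while rods use those of Gnb1 and Gngt1. Gnb3 is also known from ON bipolar cells, which receive photoreceptor signals. Thrb encodes thyroid hormone receptor beta, a nuclear receptor that in the mouse retina is needed in developing cones for medium-wavelength opsin. The Pde6b gene named in the control label encodes a subunit of the rod phosphodiesterase, and mice that lack it lose their rods first and their cones later. No probe was annotated to any of the 8 cone markers Arr3, Opn1sw, Opn1mw, Gnat2, Pde6h, Pde6c, Cnga3 and Cngb3, so the name cone genes rests on what is known of the 3 genes and could not be checked against cone markers here.

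Each value is a log2 ratio of sighted over control RNA, so a value above 0 means a higher level in the sighted sample. A replicate is the mean of 2 consecutive arrays with the dyes exchanged, which gave 6 eye, 6 brain and 4 heart replicates. The direction is likely and not documented: it was taken from 5 rod marker probes, whose median in the deposited eye values ranged from 4.98 to 5.74 on arrays with sighted RNA in Cy5 and from -5.42 to -4.06 on arrays with sighted RNA in Cy3. It was carried over to brain and heart, whose signs rest on that transfer. Array medians, before any turn of sign, ranged from -0.061 to 0.535 in eye, from 0.002 to 0.1 in brain and from 0.034 to 0.217 in heart. Missing values made up 1.62% to 5.1% of an eye array, 1.01% to 5.05% of a brain array and 5.96% to 61.6% of a heart array.

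Thrb probe 6064 gave the largest eye ratio of the member probes and was called under all 18 alternatives run. The start sites of Thrb are therefore shown. The call of the other Thrb probe, 19047, was lost under several of these alternatives. The RefSeq table for GRCm38.p6 holds 2 windows for Thrb, each reaching from 250 bases before to 50 bases after a start, and both lie on the plus strand of chromosome 14. Gnb3 and Gngt2 were not matched in it. The capitals mark the letters GGATTA, which is TAATCC on the other strand, the core motif of the photoreceptor homeodomain factors CRX and OTX2.
Thrb, chr14:17660710-17661009: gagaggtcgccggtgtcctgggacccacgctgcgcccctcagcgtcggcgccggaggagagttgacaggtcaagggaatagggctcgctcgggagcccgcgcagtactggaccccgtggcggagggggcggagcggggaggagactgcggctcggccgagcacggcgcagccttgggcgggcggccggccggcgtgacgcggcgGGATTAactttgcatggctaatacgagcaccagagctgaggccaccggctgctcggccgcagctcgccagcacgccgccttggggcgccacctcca
Thrb, chr14:17981394-17981693: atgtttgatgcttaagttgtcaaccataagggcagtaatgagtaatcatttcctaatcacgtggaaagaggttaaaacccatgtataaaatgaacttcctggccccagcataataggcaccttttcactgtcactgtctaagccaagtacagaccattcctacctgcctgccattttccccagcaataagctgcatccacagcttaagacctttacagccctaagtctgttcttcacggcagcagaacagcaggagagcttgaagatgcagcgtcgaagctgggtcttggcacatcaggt
The first window has a GC content of 72.7% and holds the motif once, with its first base at position -46 from the start. The second window has a GC content of 46.0% and holds it 0 times. Both strands were searched for TAATCC, and 2320 of 32851 mouse windows of 300 bases, or 7.1%, contain it. Which start the transcripts read by either Thrb probe use is not known here.

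In eye, all 4 probes were higher in sighted than in control RNA. The limma test with Benjamini-Hochberg adjustment over 19088 probes called 27% of all probes in either direction, 16% as higher and 11.1% as lower, so a call alone does not set these genes apart from other eye probes. Thrb probe 6064 showed the largest of the 4 differences, about 1.67-fold, and the other 3 lay between 1.18-fold and 1.26-fold. These are whole eyes, in which fewer cells of a type and less RNA per cell cannot be told apart.

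Thrb probe 6064 had a lowest eye replicate of 0.401, a median of 0.834 and a highest of 0.993. Every one of the 6 replicates lay above 0, and the lowest exceeded the highest replicate of brain, a separation not counted over all probes. The mean was 0.737 ± 0.240 (SD, n = 6), a 1.67-fold higher level with a 95% interval of 0.524 to 0.949 on the log2 scale and a limma adjusted p of 0.000755. It exceeded the mean of 96.8% of the probes tested in eye, whose median was 0.0276.

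The second Thrb probe, 19047, ranged from 0.159 to 0.383 over the eye replicates, with a median of 0.189. All 6 replicates were above 0 and 4 of them lay close together, at 0.159 in replicate 2, 0.188 in replicate 3, 0.191 in replicate 4 and 0.169 in replicate 5. Its mean of 0.233 ± 0.0915 (SD, n = 6) is 1.18-fold, with an interval of 0.0980 to 0.368 and a limma adjusted p of 0.0202. With both probes averaged, Thrb stood at 0.485 ± 0.152 (SD, n = 6; limma adjusted p = 0.00149, in a fit that called 26.7% of genes and unnamed probes), but the probes did not give the same size. Probe 6064 was higher than probe 19047 in 6 of 6 eye replicates, by 0.504 ± 0.200 (SD, n = 6). An exact two-sided sign-flip permutation test gave p = 0.0313, the smallest this number of replicates allows, and 0.0938 after adjustment over the 3 organs. The probe sequences were not used here, so the transcripts that each probe reads are not known.

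Gnb3, the cone transducin beta subunit, varied between the eye replicates about as much as Thrb probe 6064 (SD 0.262 against 0.240) and more than probe 19047 (SD 0.0915). It was 0.539 in replicate 1, 0.539 in replicate 3 and 0.589 in replicate 5. It was 0 in replicate 2, 0.052 in replicate 4 and 0.276 in replicate 6. Thus 5 of 6 replicates were above 0, and the mean of 0.332 ± 0.262 (SD, n = 6), or 1.26-fold, had an interval of 0.106 to 0.559 and a limma adjusted p of 0.0382.

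Gngt2, the cone transducin gamma subunit, had its highest eye value of 0.4925 in replicate 3 and its lowest of -0.0135 in replicate 6, with a median of 0.291. Again 5 of 6 replicates were above 0, but the replicate that was not above 0 differed from that of Gnb3. The mean was 0.261 ± 0.188 (SD, n = 6), or 1.20-fold, with an interval of 0.0789 to 0.442 and a limma adjusted p of 0.0419.

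Only the call of Thrb probe 6064 held whichever eye replicate was left out, with a mean of 0.685 to 0.804 and an adjusted p of 0.00105 to 0.00472. Thrb probe 19047 was no longer called without replicate 1, 4 or 6, at an adjusted p of up to 0.0662. The Gnb3 call was lost without replicate 1, 3, 5 or 6, at up to 0.109. The Gngt2 call was lost without replicate 1, 2, 3, 4 or 5, at up to 0.116. Their means stayed above 0 in each of these fits, between 0.203 and 0.248 for probe 19047, between 0.281 and 0.399 for Gnb3 and between 0.214 and 0.315 for Gngt2. Calls over all probes also fell, to between 3984 and 5002 without 1 replicate, against 5160 with all 6.

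**Figure D1:**
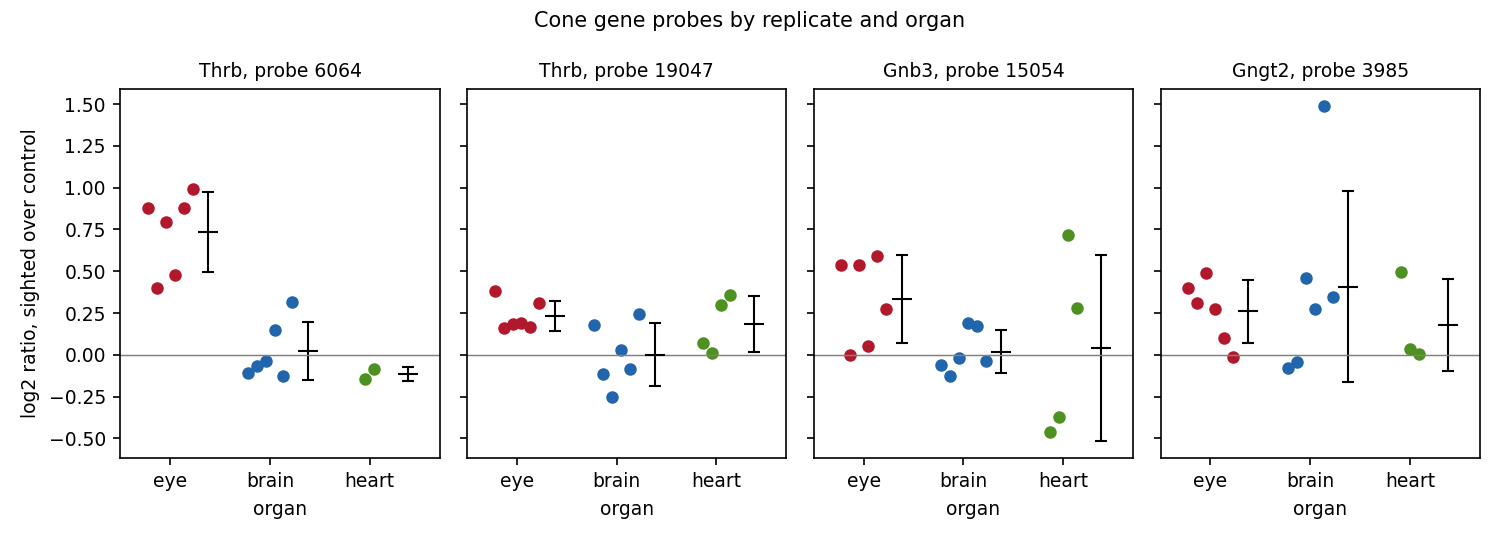
Log2 ratio of sighted over control RNA (vertical axis) of the 4 probes in eye, brain and heart (horizontal axis); each point is 1 replicate and the bar gives the mean with its SD. All 6 eye points of Thrb probe 6064 lie above its brain points, while the other probes overlap between organs and Gngt2 has 1 brain point at 1.49.

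The eye arrays were also taken by the dye of the sighted RNA. With sighted RNA in Cy5, the 6 eye arrays gave Thrb probe 6064 a mean of 0.824 ± 0.300, and with sighted RNA in Cy3 the other 6 gave 0.649 ± 0.360 (SD, n = 6 each). Both were called on their own, at a limma adjusted p of 0.00173 and 0.0133, and all 12 arrays were above 0, from 0.091 on array 4 to 1.23 on array 1. For comparison, 39.5% of all probes were called on the Cy5 arrays and 23.9% on the Cy3 arrays.

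Probe 19047 of Thrb averaged 0.562 ± 0.352 on the Cy5 arrays, with 5 of 6 above 0, and -0.0955 ± 0.437 on the Cy3 arrays, with 1 of 6 above 0 (SD, n = 6 each). Gnb3 averaged 0.697 ± 0.433 on the Cy5 arrays, all 6 above 0, and -0.0322 ± 0.310 on the Cy3 arrays, 3 of 6 above 0. Gngt2 averaged 0.560 ± 0.444 on the Cy5 arrays, 5 of 6 above 0, and -0.0390 ± 0.180 on the Cy3 arrays, 3 of 6 above 0. The limma adjusted p on the Cy5 arrays was 0.0135 for probe 19047, 0.0107 for Gnb3 and 0.0265 for Gngt2, and on the Cy3 arrays it was 0.691, 0.880 and 0.812. As deposited, these 3 probes were thus called as higher in sighted eye with the sighted RNA in Cy5 and not with it in Cy3. The test of that difference is the dye component given below.

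The eye arrays as a whole also differed by dye. The median of all probes was 0.273 on the Cy5 arrays and -0.216 on the Cy3 arrays, and 92.1% and 14.7% of the probes called there were higher. When each array was centred on its own median, all 4 probes had a positive mean in both orientations. Thrb probe 6064 was then at 0.546 ± 0.216 with sighted RNA in Cy5 and 0.859 ± 0.191 with sighted RNA in Cy3, Thrb probe 19047 at 0.284 ± 0.303 and 0.115 ± 0.296, Gnb3 at 0.419 ± 0.326 and 0.178 ± 0.175, and Gngt2 at 0.282 ± 0.314 and 0.172 ± 0.129 (SD, n = 6 each). Thrb probe 6064 was called in both orientations, at a limma adjusted p of 0.00471 and 0.000575, and Gnb3 on the Cy5 arrays, at 0.0445. The remaining single-orientation values had an adjusted p between 0.105 and 0.505. These centred fits called 24.6% and 24.2% of all probes and were chosen after seeing the data.

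Averaged over both dyes, centring left Thrb probe 6064 at 0.703 ± 0.191, probe 19047 at 0.199 ± 0.0876 and Gnb3 at 0.299 ± 0.223, each still called (limma adjusted p = 0.000439, 0.0197 and 0.0318), in a fit that called 31.1% of all probes. Gngt2 was at 0.227 ± 0.191 and no longer called, at 0.0565 (SD, n = 6 each).

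**Figure D2:**
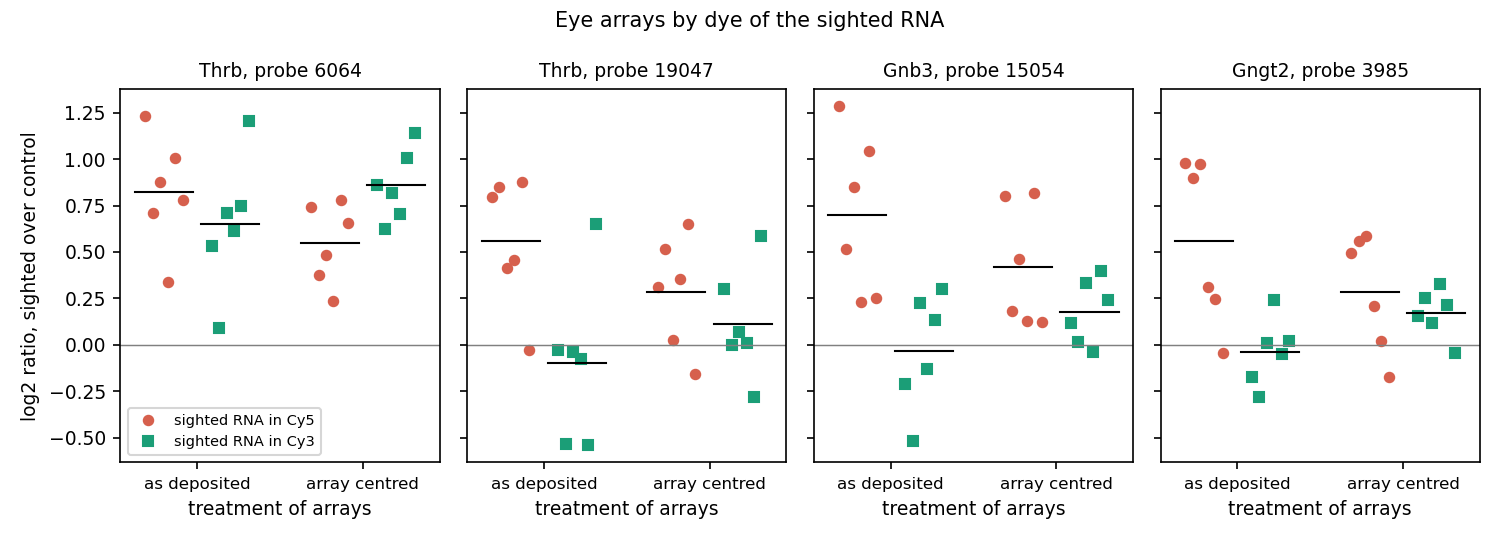
Log2 ratio of sighted over control RNA (vertical axis) of the 4 probes on each of the 12 eye arrays, as deposited and after centring each array on its median (horizontal axis), with circles for sighted RNA in Cy5, squares for sighted RNA in Cy3 and a line at each mean. Squares of Thrb probe 19047, Gnb3 and Gngt2 average just below 0 as deposited and above 0 after centring, and those of Thrb probe 6064 stay above 0 in both.

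The part of the signal that follows the dye and not the sample was taken as the mean of both deposited ratios of a pair. In eye it was 0.0878 ± 0.228 for Thrb probe 6064, below the median of all probes at 0.249. It was 0.329 ± 0.386 for Thrb probe 19047, 0.365 ± 0.270 for Gnb3 and 0.300 ± 0.282 for Gngt2 (SD, n = 6 each). Of all eye probes, 45.2% had a called dye component, and among the members those of Gnb3 and Gngt2 did (limma adjusted p = 0.0237 and 0.0448), while Thrb probe 6064 had an adjusted p of 0.423 and probe 19047 one of 0.0623. Probe 19047 passed without replicate 6, at 0.462 (adjusted p = 0.0105). The Gnb3 and Gngt2 calls were lost without replicate 1, 2, 3 or 5, at up to 0.0773 for Gnb3 and up to 0.135 for Gngt2, that of Gngt2 also with the repeated top values kept (adjusted p = 0.0569), and both after centring, where Gnb3 was at 0.120 (adjusted p = 0.264) and Gngt2 at 0.0553 (adjusted p = 0.616).

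In brain, none of the 4 probes was called, where 1 of 19376 probes, or 0.00516%, was. That probe belongs to Gh, the growth hormone gene of the pituitary, which was lower in sighted brain, and 785 probes had an unadjusted p under 0.05. Thrb probe 6064 ranged from -0.124 to 0.314 over the 6 brain replicates, and its mean was 0.0215 ± 0.174. Probe 19047 ranged from -0.250 to 0.246 with a mean of 0.00108 ± 0.188, and Gnb3 from -0.129 to 0.188 with a mean of 0.0197 ± 0.131 (SD, n = 6 each). For these 3 probes the limma adjusted p was 0.986, 0.999 and 0.983, and replicates lay on both sides of 0. The 95% intervals reached up to 0.195, 0.183 and 0.170 on the log2 scale.

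Gngt2 had a higher brain mean than eye mean, at 0.408 ± 0.572 (SD, n = 6), but only with its highest replicate included. Replicate 5 stood at 1.49, and the others at -0.0805, -0.0425, 0.458, 0.276 and 0.345. Within replicate 5 the value came from array 9, with sighted RNA in Cy5, at 3.29, whereas array 10, with sighted RNA in Cy3, gave -0.309. The other Cy5 arrays gave 0.805, 0.685 and 0.648 on arrays 5, 7 and 11, and -0.147 and 0.03 on arrays 1 and 3. Without replicate 5 the mean was 0.191, and with it the limma adjusted p was 0.961. Sighted RNA in Cy5 gave a brain mean of 0.885 ± 1.24, and sighted RNA in Cy3 gave -0.0697 ± 0.149 (SD, n = 6 each), neither of them called, in fits that called 5.39% and 9.01% of all probes.

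In heart, 0 of 14718 probes were called by limma and 1256 had an unadjusted p under 0.05. Thrb probe 6064 had only 2 complete replicates, at -0.143 and -0.0835, and was not tested. Probe 19047 stood at 0.0685, 0.0135, 0.298 and 0.358, a mean of 0.184 ± 0.169 (SD, n = 4; limma adjusted p = 0.635), with all 4 replicates above 0. Gnb3 replicates were -0.459, -0.371, 0.715 and 0.281, on both sides of 0, with a mean of 0.0414 ± 0.557 (SD, n = 4; limma adjusted p = 0.951). Gngt2 gave 0.494, 0.035 and 0.0055 and missed replicate 4, so its mean of 0.178 ± 0.274 (SD, n = 3; limma adjusted p = 0.721) rests on 3 replicates. Replicate 4 contains the array with 61.6% missing values.

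Set against brain, the eye difference of Thrb probe 6064 was itself tested. Because that probe lacked heart replicates, a fit of the eye and brain replicates alone was added after seeing the data. Eye exceeded brain by 0.715 with an SE of 0.121, at a limma adjusted p of 0.000975, in a fit that called 17.5% of 18516 probes in either direction and 10.8% as higher in eye. The groups did not overlap, and how many of all probes separate in this way was not counted. The eye and brain control pools came from different mice, and a difference between these pools is not separated from the tested difference. Leaving out any 1 replicate kept the adjusted p between 0.000507 and 0.00327.

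No other member probe was called between eye and brain in that fit: probe 19047 differed by 0.232 (SE 0.0955, adjusted p = 0.121), Gnb3 by 0.313 (SE 0.120, adjusted p = 0.0945) and Gngt2 by -0.147 (SE 0.221, adjusted p = 0.720). Without eye replicate 2, where its ratio was 0, the Gnb3 difference was 0.379 and was called (adjusted p = 0.0368). That call rests on leaving out the value that most reduced the difference, and the share of all probes called there is not given. Without brain replicate 5 the Gngt2 difference was 0.0693, with an adjusted p of 0.779.

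The fit of all 3 organs called 13% of 14351 probes between eye and brain and 23.8% between eye and heart. The eye minus heart difference was 0.0486 for Thrb probe 19047 (SE 0.115, adjusted p = 0.797), 0.291 for Gnb3 (SE 0.198, adjusted p = 0.306) and 0.0825 for Gngt2 (SE 0.263, adjusted p = 0.852), and none was called. Without heart replicate 3, which held the highest Gnb3 value of 0.715, the Gnb3 difference between eye and heart was 0.515 and was called (adjusted p = 0.0437). Here too the value left out was the one that most reduced the difference, and the share of all probes called is not given. By their means, Thrb probe 6064 was ordered eye, brain and heart, Thrb probe 19047 and Gnb3 were ordered eye, heart and brain, and Gngt2 was ordered brain, eye and heart. Among neighbours in these orders, the difference between eye and brain of Thrb probe 6064 passed its test and the others tested did not.

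Gnb3 was set against Gnb1, the beta subunit of rod transducin, which many other cells also express. Probe 1239 of Gnb1 ranged from 0.926 to 1.82 over the eye replicates, a mean of 1.20 ± 0.324 (SD, n = 6; limma adjusted p = 0.000203). Probe 2087 of Gnb1 ranged from -0.102 to 0.375, a mean of 0.110 ± 0.177 (SD, n = 6; limma adjusted p = 0.338), so both probes of that gene disagreed. With the Gnb1 probes averaged to 0.655 ± 0.195, Gnb3 was lower by 0.323 ± 0.282 and higher in 1 of 6 replicates (SD, n = 6; exact two-sided sign-flip permutation p = 0.0938, where 0.0313 is the smallest possible). No probe was annotated to Gngt1, the rod counterpart of Gngt2, nor to the alpha subunits Gnat1 of rods and Gnat2 of cones, so those pairs could not be compared.

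Among 19 listed genes of cone phototransduction, 4 had a probe, and 4 of their 5 probes rose in eye and 0 fell, with a median of 0.332 against 0.0276 for all probes tested. The list includes Gnb3 and Gngt2 themselves, and its median is the value of Gnb3. Of all eye probes 16% were called as higher and 11.1% as lower, and each list below is to be read against these shares. Rgs9, whose product shuts off transducin in rods and cones, rose by 3.34 ± 0.138 at probe 4857, while its probe 11192 was at 0.0450 (limma adjusted p = 0.582). Gnb5, which encodes the beta subunit that partners RGS9, rose by 1.80 ± 0.165 (SD, n = 6 each; limma adjusted p = 3.91e-08 for Rgs9 and 1.72e-06 for Gnb5). Rods use both gene products as well. Gnb3 and Gngt2 are the other called probes of this list and the ones with the smallest called differences in it.

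Rod phototransduction had 4 of 13 listed genes on the array. Of its 5 probes, 4 rose and 0 fell, with a median of 5.10. The direction of all ratios was taken from rod markers that include Sag, Guca1b and Cngb1. That these rose was therefore set in advance. The rod gene Sag, which encodes arrestin, rose by 5.35 ± 0.142, Guca1b, a guanylate cyclase activator, by 6.45 ± 0.203, and Cngb1, a subunit of the rod cyclic nucleotide channel, by 5.10 ± 0.357 (SD, n = 6 each; limma adjusted p = 3.91e-09, 3.91e-09 and 9.93e-08).

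Photoreceptor fate regulators, the list with Thrb, had 10 of 19 genes on the array and 15 probes, of which 9 rose and 2 fell, with a median of 0.516. Both Thrb probes are among those that rose. Esrrb, an orphan nuclear receptor of rods, rose by 5.44 ± 0.455. Pias3, a SUMO ligase active in photoreceptors, rose by 1.12 ± 0.146, and the transcription factor genes Mef2d and Mef2c rose by 0.910 ± 0.0949 and 1.07 ± 0.152 at 1 of their 2 probes each (SD, n = 6 each; limma adjusted p between 2.50e-07 and 2.45e-05 over these 4 genes). The other probe of Mef2d was at 0.150 (limma adjusted p = 0.265), and that of Mef2c rose by 0.516 (limma adjusted p = 0.0447), so these genes had probes both above and below Thrb probe 6064. Rora probes 1024 and 19073 rose by 1.00 and 0.644, and its probe 19953 was at 0.483 (limma adjusted p = 6.3e-05, 0.000216 and 0.0881). Rxrg, the retinoid X receptor that pairs with the product of Thrb in cones, had a mean of 0.161 (limma adjusted p = 0.105). Nr2f2 and Nr2f1, which encode the COUP transcription factors, were the ones that fell, by 0.541 ± 0.270 and 0.471 ± 0.256 (SD, n = 6 each; limma adjusted p = 0.00512 and 0.00813).

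Thyroid hormone signalling, the pathway of Thrb, had 18 of 26 genes and 29 probes. Of these, 5 rose and 3 fell, with a median of 0.149, which is close to the shares of 16% higher and 11.1% lower among all probes. Besides both Thrb probes, Trip12, a ubiquitin ligase gene, rose by 0.527 ± 0.129 at 1 probe and stood at 0.239 at the other (limma adjusted p = 0.000727 and 0.0669). Klf9, a thyroid hormone target gene, rose by 0.649 ± 0.278 at 1 of its probes and stood at 0.273 at the other (limma adjusted p = 0.00236 and 0.0936). Ncoa3, a nuclear receptor coactivator, fell by 0.482 ± 0.0959 (SD, n = 6 each; limma adjusted p = 0.000696). Crym, which encodes a cytosolic thyroid hormone binding protein, and Dio3, the deiodinase that inactivates the hormone, were the other 2 that fell, with means of -0.425 ± 0.139 and -0.367 ± 0.252. Ncoa1 probe 17445 also rose, by 0.418, and its probe 19985 was at 0.432 (n = 5 each; limma adjusted p = 0.0256 and 0.294). Thrb probe 6064 had the highest mean in the list. Without eye replicate 2 it had 9 that rose and 2 that fell, and without eye replicate 6 it had 4 and 2.

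Of the G protein beta and gamma subunits, 12 of 18 genes had a probe, and 5 of the 16 probes tested rose while 2 fell, with a median of 0.0675. Gnb3 and Gngt2 are among those that rose. Gnb5 is described above, and Gnb4, another beta subunit, rose by 1.72 ± 0.104. Gng12, a gamma subunit, fell by 0.531 ± 0.381 and 0.355 ± 0.246 at 2 probes (SD, n = 6 each; limma adjusted p = 7.40e-07 for Gnb4, 0.0194 and 0.0248 for Gng12), and its remaining probe was at -0.0361 (adjusted p = 0.937). Of the alpha subunits, 9 of 16 genes had a probe, and 4 of the 15 probes rose and 1 fell, with a median of -0.0808, against 16% higher and 11.1% lower among all probes. Gnaz rose by 1.47 ± 0.0973, Gna13 by 0.845 ± 0.251 at 1 probe and 0.217 ± 0.1001 at another, and Gnas by 0.314 ± 0.139 at 1 of its 3 probes, while Gna14 fell by 0.834 ± 0.135 (SD, n = 6 each; limma adjusted p between 1.66e-06 and 0.0298). Without eye replicate 2 or 6, the counts of the other 5 lists each moved by at most 1 probe in a direction. In brain and heart, 0 probes of any of the 6 lists were called, where only 1 of 19376 brain probes and 0 of 14718 heart probes were.

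**Figure D3:**
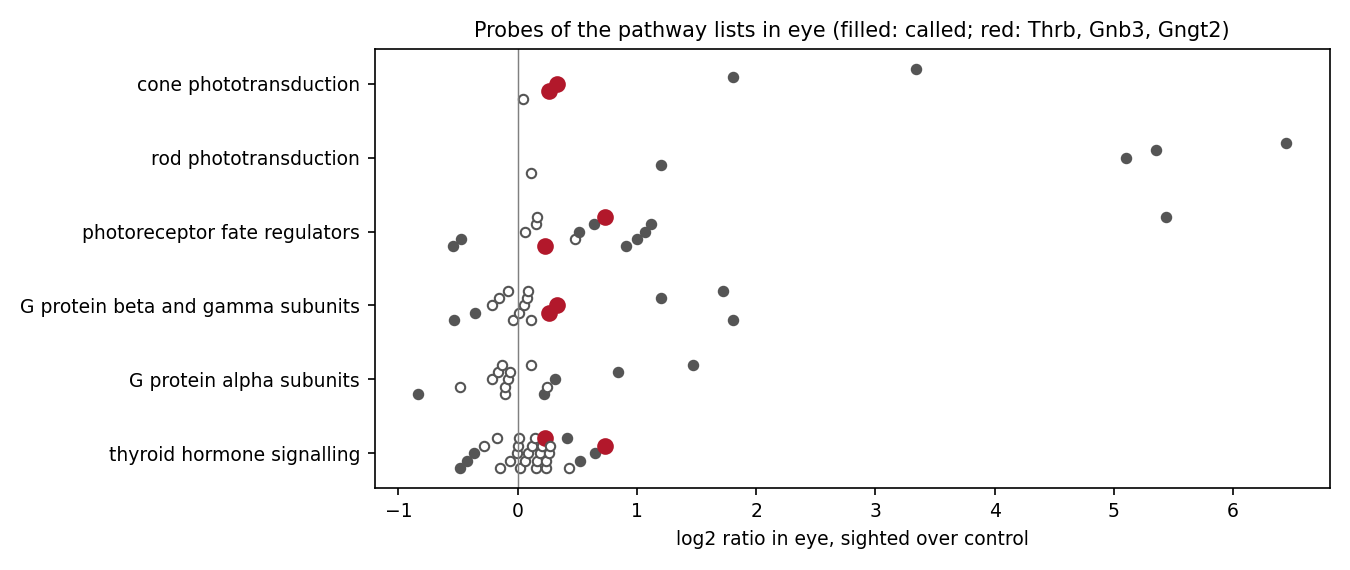
Mean log2 ratio of sighted over control RNA in eye (horizontal axis) of each tested probe in the 6 gene lists (rows), with filled points for called probes, open points for the others and red points for Thrb, Gnb3 and Gngt2. The red points of Gnb3 and Gngt2 lie far left of Rgs9 at 3.34 and of the rod genes above 5, and Thrb probe 6064 lies right of all other probes of thyroid hormone signalling.

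Marker lists of other eye cells were counted in the same fit, in which 27% of all probes were called, 16% as higher and 11.1% as lower. All 5 rod marker probes rose, with a median over the list between 4.65 and 5.44 in the 6 replicates. The direction of all ratios was taken from these rod probes, so that they rose was set in advance. Of 11 probes for bipolar cells, from which Gnb3 is also known, 1 rose and 0 fell, and their median lay between -0.165 and 0.165. Replicates 2 and 4, which held the lowest values of Thrb probe 6064 and of Gnb3, also held the lowest rod medians, at 4.65 and 4.84, and the lowest bipolar medians, at -0.165 and -0.161. They were not the lowest for Gngt2, whose lowest values were in replicates 5 and 6, nor both for Thrb probe 19047, whose lowest were in replicates 2 and 5. Over all probes the replicate medians lay between -0.102 in replicate 2 and 0.142 in replicate 3. Of 11 lens probes 9 rose and 1 fell, of 8 skeletal muscle probes 1 rose and 7 fell, of 12 immune and microglia probes 0 rose and 8 fell, of 13 Mueller glia probes 1 rose and 5 fell, of 9 amacrine and horizontal probes 1 rose and 2 fell, and of 7 ganglion cell probes 0 rose and 1 fell. The part of these cell types and of the replicate medians in the values of Thrb, Gnb3 and Gngt2 was not tested.

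**Figure D4:**
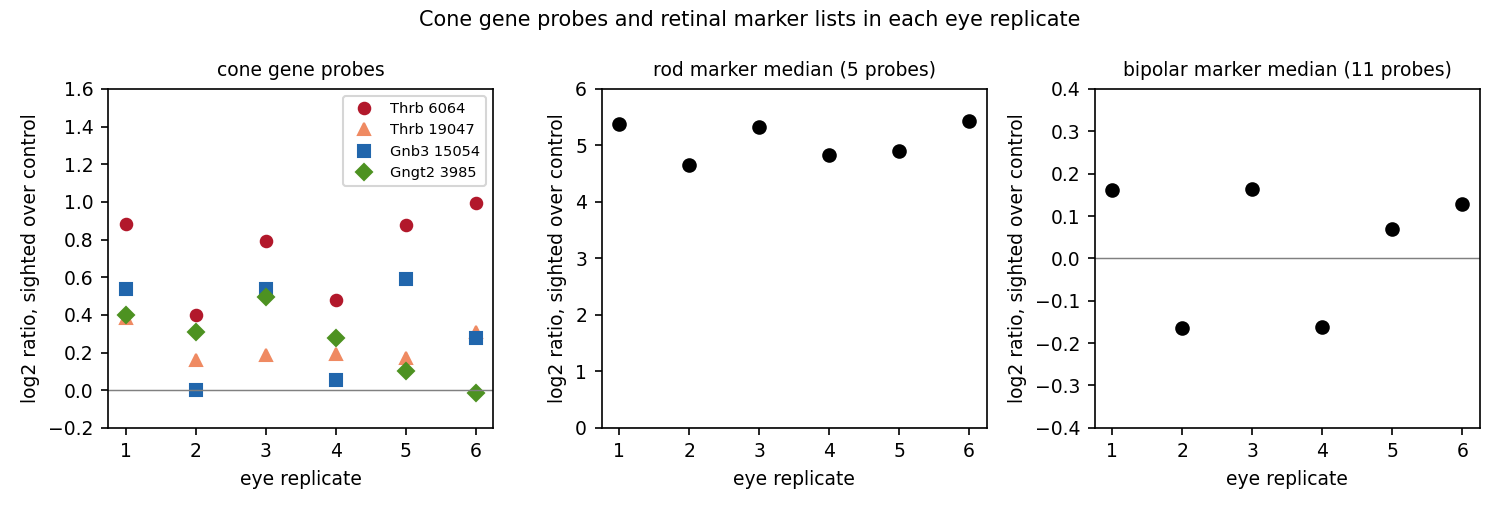
Log2 ratio of sighted over control RNA (vertical axes, each with its own range) in the 6 eye replicates (horizontal axes) for the 4 probes, for the median of 5 rod marker probes and for the median of 11 bipolar marker probes. Replicates 2 and 4 are the lowest for Thrb probe 6064, Gnb3, the rod median and the bipolar median, while Gngt2 is lowest in replicate 6.

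The genes whose ratios lay nearest to each member were found by the root mean square distance over all replicates of the 3 organs. For Thrb, over 16 replicates and 4086 genes, they were Mthfs at 0.126, Slc12a9 at 0.130 and Dpy30 at 0.132, where the median gene lay at 0.410. Their eye means were 0.470, 0.356 and 0.460, against 0.485 for Thrb with both probes averaged. The eye replicates entered the distance by which these genes were chosen, so this closeness is no separate result. For Gnb3 they were Atg9a at 0.159, Nckipsd at 0.183 and BC005624 at 0.185, against a median of 0.428. For Gngt2, over 15 replicates and 6675 genes, they were Card19 at 0.247, Smap2 at 0.304 and Bcl7b at 0.310, against a median of 0.561. The distances are a description of these arrays with no test, and they share arrays and dyes.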

How the data were processed

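Per the labels' protocols, total RNA of eye, brain and heart was turned into cDNA that carried Cy3 or Cy5 by indirect labelling. The deposited values are log2 ratios within an array. The scanner, background correction, normalization and genome build were each not given in the sources used here. Brain array 3 is labelled Cy5 in both channels and was read as sighted in Cy5. The ratio was read as Cy5 over Cy3 from the rod genes, and its scale as base 2 from the 16.61 that all eye arrays repeat at the top, which is log2 of 100000. Brain and heart arrays top out at other values, and whether they were scaled in another way than the eye arrays is not known. Repeated top values above 15, 4170 in all, were set missing after seeing the data, and 5.88% of values were missing as deposited. All 32 columns were mapped to samples, with 0 left over.

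The sign was turned on arrays with the sighted sample in Cy3, and consecutive arrays of opposite dye were averaged. A probe could miss 1 replicate. Means were tested against 0, two-sided, with limma 3.58.1 in R 4.3.3 and Benjamini-Hochberg adjustment over all probes at 0.05. No value was filtered for low signal, since no intensities were used, so the precision is limited by the number of arrays. Symbols matched a RefSeq table of GRCm38.p6, which changed 0 of them. The test was checked on simulated data. The members and lists were chosen with earlier results of these data known. The genes named are all probes of the members, the rod counterparts and up to 4 called genes of each list by the smallest p in eye. The 3 nearest genes of each member are also named. Rxrg, Rora, Nr2f1, Nr2f2, Crym, Dio3, Ncoa1, second probes of named genes and Gh were added after seeing their values. Alternatives were single dye orientations, centring, scaling, unpaired arrays, kept top values, stricter and robust fits, averaged probes, a replicate block, each organ's own spread and leaving out each replicate.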

Additional observations from a re-analysis of the deposited data

Results flagged for a closer look

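Gngt2 in brain had 1 replicate far from the others. Replicate 5 was at 1.49 and the next highest at 0.458, and 1 of the 10 groups of 4 to 10 replicates checked for such a gap had one, where chance flags about 1 in 20. The value came from 1 array of the pair, at 3.29 with sighted RNA in Cy5, against -0.309 on the array with sighted RNA in Cy3.

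Thrb probe 6064 differed between eye and brain, each measured against its own control pool. Its ratio in eye exceeded that in brain by 0.715 (SE 0.121, n = 6 each), at a limma adjusted p of 0.000975 in the fit of eye and brain replicates. That fit called 17.5% of 18516 probes in either direction and 10.8% as higher in eye. All 6 eye replicates lay above all 6 brain replicates, and how many of all probes separate in this way was not counted. With each array centred on its median the difference was 0.680 (adjusted p = 0.000524). The eye and brain control pools came from different mice, and a difference between pools was not separated from this.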

How the results depend on the processing

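Thrb probe 6064 kept its eye call under all 18 alternatives run (0.546 to 0.859, adjusted p 3.01e-06 to 0.0133). On the eye arrays with sighted RNA in Cy3 alone, Thrb probe 19047 was at -0.0955, Gnb3 at -0.0322 and Gngt2 at -0.0390. With every array on its own, probe 19047 at 0.233 (adjusted p = 0.136, or 0.0963 with a random block for pairs) and Gngt2 at 0.261 (0.0587) lost their calls. Centring ended that of Gngt2 (0.227, 0.0565). With centred arrays of 1 orientation, probe 19047 (0.284 in Cy5, 0.115 in Cy3), Gngt2 (0.282 and 0.172) and Gnb3 (0.178 in Cy3) were not called. Without 1 replicate in turn, the means ranged from 0.203 to 0.248 for probe 19047, 0.281 to 0.399 for Gnb3 and 0.214 to 0.315 for Gngt2. Fewer arrays enter the fits by orientation and without a replicate; otherwise the cause was not tested.

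Eye calls were 7789 with sighted RNA in Cy5 only and 5928 with arrays centred, of which 51.6% were higher, against 59% of 5160. Eye dye calls were 583 with arrays centred, 425 with scaling too and 2439 to 12041 without 1 replicate, against 8619. Brain dye calls were 2284 to 3350 without 1 replicate, against 3853. Brain calls were 9 with every array on its own (also with the random block), 3 with scaling, 0 with the top value kept, 3 with every replicate needed, 7 without the probes of most spread, 1080 in Cy5 only, 1791 in Cy3 only, 687 and 1050 with these centred, and 0 to 1 without 1 replicate. With each organ's own spread, eye minus brain had 3159 calls against 1867, eye minus heart 703 against 3414 and brain minus heart 0 against 487, the last also 71 to 1243 without 1 replicate.

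Same-numbered replicates of different organs correlated between -0.0624 and 0.0588. This cannot tell whether a number marks 1 animal, since the arrays averaged as a pair also correlated only between -0.241 and 0.164. With the replicate block, eye minus brain gave 1537 calls, eye minus heart 2355 and brain minus heart 0. These counts come from the fit of all organs, in which Thrb probe 6064 was not tested. In the fit of the eye and brain replicates alone, the block gave 2547 calls of 18516 probes. Thrb probe 6064 differed in that fit by 0.715 between eye and brain (adjusted p = 0.00553). Thrb probe 19047 differed there by 0.232 (adjusted p = 0.125), Gnb3 by 0.313 (0.123) and Gngt2 by -0.147 (0.731).

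Uncalled values changed sign as follows. In brain with sighted RNA in Cy3 only, probe 6064 was at -0.121, 19047 at -0.0418, Gnb3 at -0.105 and Gngt2 at -0.0697, and with these centred 6064 was at -0.0635, Gnb3 at -0.0473 and Gngt2 at -0.0120, and in centred Cy5 19047 was at -0.0102. Without 1 brain replicate, 6064 ranged from -0.0370 to 0.0506, 19047 from -0.0478 to 0.0512 and Gnb3 from -0.0140 to 0.0494. In heart with sighted RNA in Cy5 only, 19047 was at -0.0263, Gnb3 at -0.0145 and Gngt2 at -0.0620, centred -0.132, -0.120 and -0.130. Gnb3 in heart was at -0.0413 with scaling and from -0.183 to 0.208 without 1 replicate. The dye component turned to -0.157 and -0.158 for 6064 in eye with centring and scaling, to -0.0130 for 19047 in brain with centring and from -0.0208 to 0.0855 without 1 replicate, and ranged from -0.310 to 0.127 for Gnb3 in heart without 1 replicate. Without 1 replicate, brain minus heart of Gnb3 ranged from -0.189 to 0.203, eye minus brain of Gngt2 from -0.245 to 0.0693 in both fits, eye minus heart of 19047 from -0.00833 to 0.107 and of Gngt2 from -0.00375 to 0.240.

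Leaving out the pair of the thinnest heart array is the same as leaving out heart replicate 4. Gngt2 against Gngt1 was not run. The 4 to 6 replicates limit the precision.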
